A study of Mus musculus with 24 samples.

Results

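Filanesib added to pomalidomide was examined in 6 of the 24 plasmacytoma arrays of the series, 3 from tumours given both drugs and 3 from tumours given pomalidomide alone. The arrays were chosen by their labelled treatment. All tumours grew from MM.1S, an established human line of multiple myeloma, injected with Matrigel under the skin of CB17-SCID mice, which lack functional T and B cells, and treatment began once tumours could be felt. The pomalidomide group received 8 mg/kg pomalidomide and the combination group 8 mg/kg pomalidomide with 10 mg/kg filanesib, each for 2 days. The other 18 arrays, also 3 a group, came from vehicle controls, filanesib at 10 mg/kg, dexamethasone at 0.5 mg/kg, both of these together, pomalidomide with dexamethasone, and all 3 drugs. They served to estimate the spread and to show the effect of filanesib in other settings. Values were log2 expression levels, so a difference of 1 is a doubling of the signal, and 14884 genes with a single named symbol were compared. Mouse is given as the organism in the labels, but the probe sets are annotated with human genes, so signal comes from the grafted cells and from any host RNA that binds the same probes. Whether every array stands for its own mouse is not stated, so the p-values cover only variation among these samples, part of which may be technical. MM.1S is a single cell line, and the host keeps other immune cells such as macrophages.

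Filanesib inhibits KIF11, also called Eg5 or kinesin spindle protein, the motor that pushes spindle poles apart at the start of mitosis. Cells without its activity form monopolar spindles and are held in mitosis by the spindle checkpoint, in which BUB1 and BUB1B keep CDC20 from switching on the anaphase-promoting complex. Pomalidomide binds cereblon, the substrate receptor of a ubiquitin ligase, and redirects it to the lymphoid factors IKZF1 and IKZF3, whose loss lowers IRF4 and MYC in myeloma cells. The design pairs each pomalidomide-containing treatment with its counterpart that also contains filanesib, which asks what the kinesin inhibitor adds. In bulk tumour RNA, fewer cells of a type and less RNA per cell cannot be told apart.

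The pomalidomide arrays stood apart from the rest. The residual standard deviation over genes was 0.232, 0.193 and 0.288 in them, against 0.127 to 0.180 in the other 21 arrays. Pomalidomide array 3 was the farthest from its group. The fit takes 1 spread per gene from all 24 arrays, which is below that of the pomalidomide arrays, so its p-values are too small here and more calls may be false than the threshold allows. Results are therefore given with and without these arrays. Myeloma genes were bright in both groups: the plasma cell genes SDC1 and XBP1 averaged 9.92 and 10.6 with pomalidomide alone and 10.0 and 10.7 with filanesib added. No pair of arrays had identical values.

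With filanesib added to pomalidomide, 53 of 14884 genes passed an adjusted p of 0.05, which is 0.356% of those tested. Of these, 38 were higher (0.255%) and 15 lower (0.101%) in the combination. The higher genes were led by regulators of mitosis: 11 of the 38 were on the 5 mitotic gene lists. The 15 lower genes comprised 3 small Cajal body RNAs, 5 microRNA genes and 7 protein-coding genes. At an unadjusted p under 0.05 there were 1980 genes, or 13.3%, against which the counts of list members at that level are to be read. In all 53 the groups did not overlap, which held for 8.28% of all genes in the higher and 5.29% in the lower direction.

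These counts depended on single arrays. Fitted on the 6 compared arrays alone, 0 genes passed in limma, with 990 at an unadjusted p under 0.05 and a lowest adjusted p of 0.253. When arrays were weighted by their agreement, 2 genes passed, CDC20 and MED31. Without pomalidomide array 2 there were 511 genes, and without pomalidomide array 3 there were 17. Leaving out combination array 1 or 2 left 0 genes, with 1591 and 1618 at an unadjusted p under 0.05, and leaving out combination array 3 left CDC20 alone. Further quantile normalisation gave 23 genes, 12 higher and 11 lower, a share of 52.2% higher against 71.7%. The median difference over all genes was 0.02 on the log2 scale and stayed within 0.03 of zero under each scaling.

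**Figure D1:**
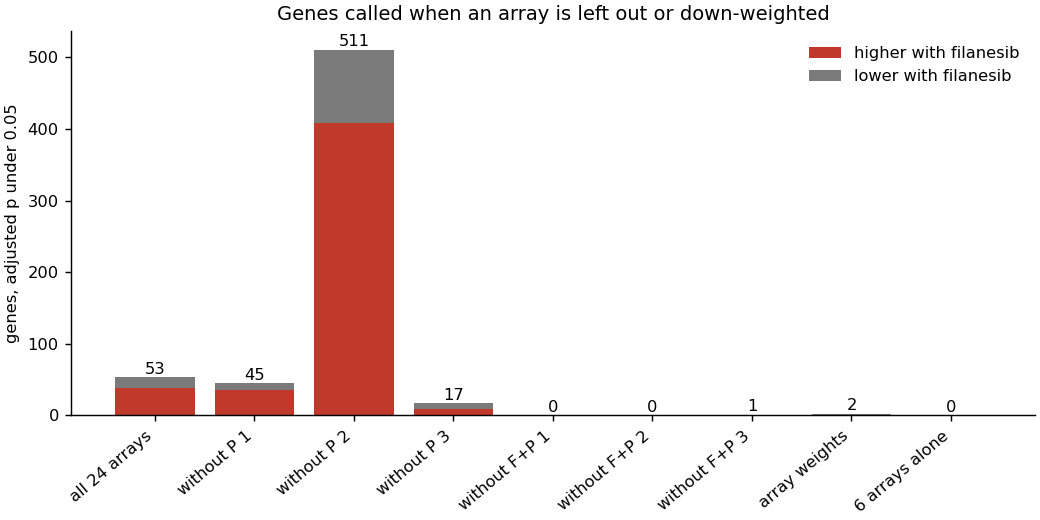
Bars count the genes with an adjusted p under 0.05 for filanesib plus pomalidomide (F+P) against pomalidomide (P), split into higher and lower, with all 24 arrays, without each compared array, with array weights, and on the 6 arrays alone. The count is 53 with all arrays, 511 without pomalidomide array 2, and 0 on the 6 arrays alone.

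Of the checkpoint and anaphase genes, CDC20, BUB1 and BUB1B rose in the combination. All 13 measured members of that list had positive differences, with a median of 0.37, where 53.5% of all genes were positive, and 3 passed. CDC20 (probe set 16663514), the activator of the anaphase-promoting complex, measured 7.30, 7.40 and 7.25 in the pomalidomide arrays and 8.23, 8.31 and 8.10 in the combination arrays. Every combination array lay above every pomalidomide array. CDC20 rose 1.86-fold, a log2 difference of 0.90 (SE 0.13, adjusted p = 0.00618 in limma), and it passed without each pomalidomide array in turn, with differences of 0.86 to 0.94. It did not pass without combination array 1 or 2.

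BUB1, a checkpoint kinase at kinetochores, measured 8.02, 7.87 and 7.64 with pomalidomide and 8.56, 8.48 and 8.45 with both drugs. The groups were separate, and the difference was 0.65 (SE 0.13, adjusted p = 0.0295). BUB1B, a pseudokinase of the complex that restrains CDC20, went from 6.37, 6.20 and 5.99 to 6.71, 6.87 and 6.75, again without overlap (difference 0.59, SE 0.13, adjusted p = 0.0458). Both lost their call without pomalidomide array 3, where BUB1 differed by 0.55 and BUB1B by 0.49. Separase, ESPL1, and the checkpoint kinase TTK had differences of 0.52 and 0.46 and did not pass.

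Mitotic cyclins and kinases gave 19 of 19 positive differences with a median of 0.45, and 3 members passed. PLK1 (probe set 16817017), the polo kinase that drives mitotic entry and spindle assembly, measured 8.82, 9.17 and 8.84 with pomalidomide and 9.86, 9.82 and 9.68 with the combination. It rose 1.8-fold with no overlap (log2 difference 0.85, SE 0.14, adjusted p = 0.0188). CDC25B, the phosphatase that starts CDK1 activation, measured 7.87, 8.31 and 7.82 against 8.81, 8.82 and 8.69. The difference was 0.77 (SE 0.13, adjusted p = 0.0188).

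FOXM1, the transcription factor of many G2 and mitotic genes, measured 6.72, 6.90 and 6.24 with pomalidomide against 7.48, 7.44 and 7.38 in the combination. The groups were separate and the log2 difference was 0.81 (SE 0.17, adjusted p = 0.0318). Without pomalidomide array 3, PLK1 still passed with a difference of 0.80, while CDC25B at 0.68 and FOXM1 at 0.62 did not. FOXM1 did not pass without array 1 either (0.86). AURKA, the Aurora kinase of the centrosome, differed by 0.66 and did not pass (adjusted p = 0.129).

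Of the 19 genes, 12 had separate groups, against 8.28% of all genes in the higher direction, and 7, CCNB1 among them, did not. CCNB1, or cyclin B1, the cyclin that activates CDK1 at mitotic entry, measured 7.20, 6.29 and 6.72 with pomalidomide and 6.92, 6.91 and 7.03 in the combination. Pomalidomide array 1 lay above all 3 combination arrays. The difference was 0.22, with a 95% interval of -0.21 to 0.64 (adjusted p = 0.689). Without pomalidomide array 2 it was -0.01, and with that array as the only pomalidomide array 0.67. In the other 3 backgrounds the mean filanesib effect on CCNB1 was 0.74 (adjusted p = 0.00305). The effect beside pomalidomide minus that mean was -0.53 and did not pass (adjusted p = 0.41).

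Kinetochore and centromere genes had 17 of 17 positive differences, a median of 0.37 and 1 member that passed. CENPA, the histone H3 variant that marks centromeres, measured 5.96, 6.44 and 6.05 against 6.89, 6.83 and 6.85, with no overlap. The difference was 0.71 (SE 0.12, adjusted p = 0.0188), and 0.66 without pomalidomide array 3 (adjusted p = 0.052). SKA1, a part of the complex that holds kinetochores to microtubule ends, differed by 0.87 and did not pass (adjusted p = 0.0592).

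Spindle assembly, chromosome condensation and cytokinesis formed the list with the highest median of the 5, at 0.63, with 18 of 18 members positive and 4 that passed. CDCA8, or borealin, and INCENP belong to the chromosomal passenger complex, which corrects attachments and directs cytokinesis. CDCA8 measured 7.02, 7.11 and 6.79 against 7.87, 7.77 and 7.78 (difference 0.83, SE 0.16, adjusted p = 0.0278). INCENP measured 6.34, 6.93 and 6.30 against 7.31, 7.37 and 7.10 (difference 0.74, SE 0.16, adjusted p = 0.0431). Neither gene had overlapping groups. CEP55, which recruits the abscission machinery to the midbody, measured 6.78, 6.62 and 6.53 against 7.45, 7.25 and 7.54. It was higher in each combination array, by 0.77 on average (SE 0.16, adjusted p = 0.037). Without pomalidomide array 3 none of these 3 genes passed, at differences of 0.74, 0.62 and 0.72, and INCENP did not pass without array 1 either (0.64).

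The widest differences among the higher genes were those of ARHGAP11A, at 1.13 (adjusted p = 0.0296), and its paralogue ARHGAP11B, at 1.32 (adjusted p = 0.0497). Both genes share much of their sequence, so their signals may not be separate. ARHGAP11A measured 8.02, 7.57 and 6.54 with pomalidomide and 8.53, 8.36 and 8.61 in the combination. The pomalidomide arrays spanned a range wider than the difference, and array 3 was the lowest. Without that array the differences were 0.71 and 0.79 and neither passed.

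Of the 12 largest rises, SPAG5 and TROAP were on none of the lists and encode spindle proteins. SPAG5, or astrin, which steadies kinetochore fibres, was higher by 0.79 (SE 0.16, adjusted p = 0.0295), and by 0.64 without pomalidomide array 3, where it did not pass (adjusted p = 0.107). TROAP, a spindle-associated protein also called tastin, was higher by 0.78 (SE 0.13, adjusted p = 0.0188) and passed without each pomalidomide array in turn. Leaving out any 1 combination array removed that call.

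Spindle motors, including the target of the drug, had 12 of 12 positive differences and a median of 0.52, but none passed. KIF11 measured 8.48, 8.27 and 7.73 with pomalidomide and 8.78, 8.48 and 8.71 in the combination. The lowest combination array was level with the highest pomalidomide array, at 8.48. The difference was 0.50, with a 95% interval of 0.09 to 0.90 (adjusted p = 0.264), and 0.28 without pomalidomide array 3. KIF15, the motor that can take over from KIF11 in resistant cells, differed by 0.28 (adjusted p = 0.51).

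KIF20A, the cytokinesis motor, was even within each group, at 6.53, 6.50 and 6.49 against 7.19, 7.16 and 7.16. Its groups were far apart for their spread, but it missed the threshold (difference 0.66, adjusted p = 0.0592). It did not pass on the 6 compared arrays alone either. KIF18B, which shortens microtubule plus ends, differed by 0.64 (adjusted p = 0.0949). KIFC1, which clusters spindle poles, differed by 0.53 (adjusted p = 0.128). Without pomalidomide array 2, KIF20A (difference 0.66, adjusted p = 0.0427) and KIF18B (0.76, adjusted p = 0.0283) passed. Without array 1, KIF20B passed, with a difference of 1.09 against 0.76 on all arrays.

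**Figure D2:**
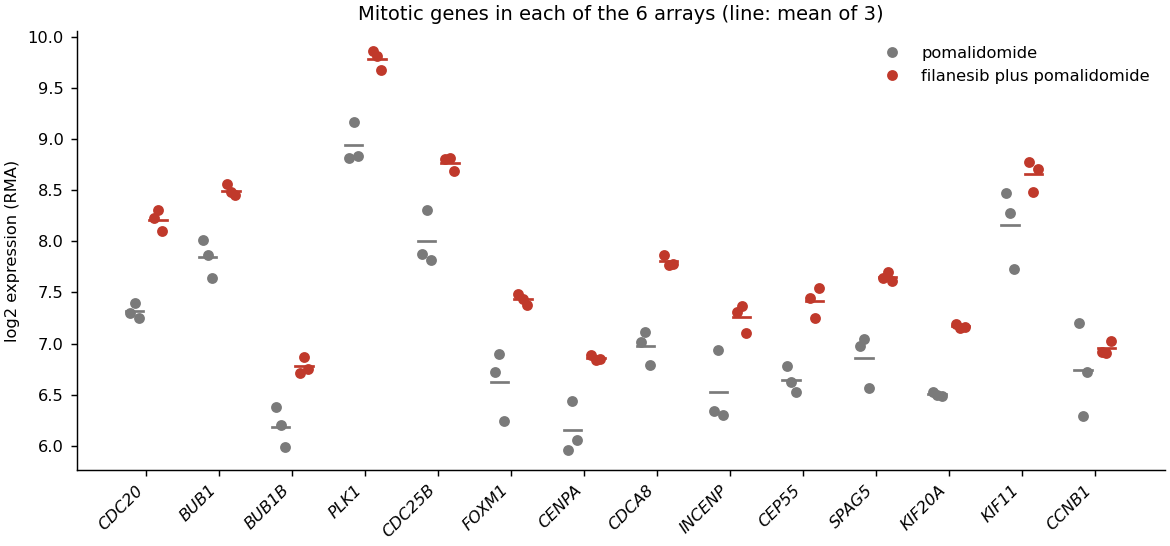
Points are log2 expression in each pomalidomide array (grey) and each filanesib plus pomalidomide array (red) for 14 mitotic genes, and lines are means of 3 arrays. CDC20 lies between 7.25 and 7.40 with pomalidomide and between 8.10 and 8.31 with both drugs, while the CCNB1 groups overlap.

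Across the 5 mitotic lists together, 78 of 78 measured genes had positive differences, 11 passed, and the median was 0.48. The level of these genes in an array, taken as the median of each gene's value minus its mean over the 24 arrays, was -0.21, -0.33 and -0.59 in the pomalidomide arrays and 0.19, 0.03 and 0.13 in the combination. Vehicle controls lay between -0.09 and 0.14. So the pomalidomide arrays were all below the controls, and the combination arrays lay within the control range or just above it. Without pomalidomide array 3, 75 of 78 were positive with a median of 0.36, and 2 passed. Without array 2, 76 were positive and 17 passed.

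**Figure D3:**
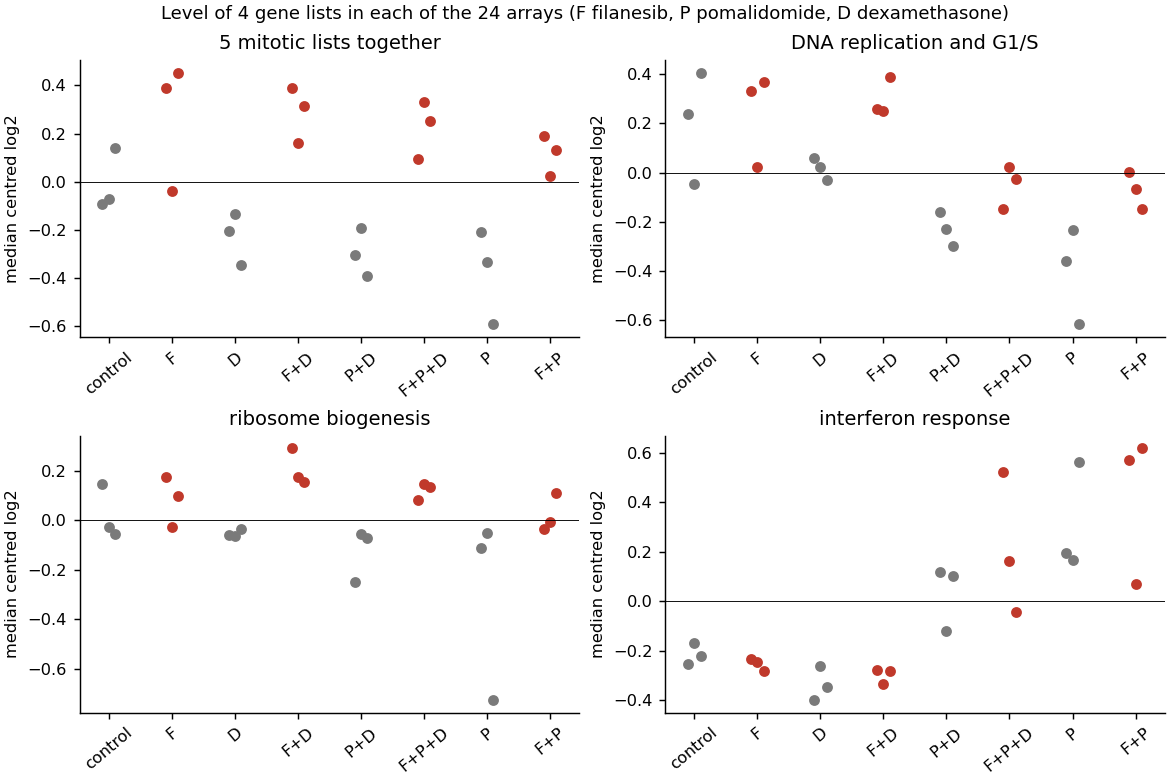
Each point is 1 of the 24 arrays, and the axis gives the median over a list's genes of log2 expression minus the gene's mean over all arrays, red for treatments that contain filanesib. For the mitotic genes the pomalidomide arrays lie between -0.59 and -0.21 and the filanesib plus pomalidomide arrays between 0.03 and 0.19, and for ribosome biogenesis pomalidomide array 3 lies far below the other arrays at -0.73.

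No replication or G1/S gene passed. All 26 measured members were above 0, with a median of 0.33, and 14 had an unadjusted p under 0.05 in limma, against 13.3% of all genes. CDC6, which loads the replicative helicase, measured 5.73, 5.87 and 5.31 against 6.60, 6.22 and 6.14. The groups did not overlap and the difference was 0.69 (adjusted p = 0.0931). E2F1, the transcription factor of S-phase genes, differed by 0.76 (adjusted p = 0.123), and the helicase subunit MCM3 by 0.50 (adjusted p = 0.138). UHRF1, which keeps DNA methylation at forks, differed by 0.40 and CDT1, a licensing factor, by 0.42. The list's level was -0.36, -0.23 and -0.62 in the pomalidomide arrays and -0.15 to 0.001 in the combination. All pomalidomide arrays and 2 of the 3 combination arrays lay below the controls, which spanned -0.05 to 0.41. Without pomalidomide array 2, 6 members passed. Against pomalidomide array 2 alone, 18 of 26 were positive with a median of 0.08.

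DNA repair genes had 12 of 13 positive differences and a median of 0.37, and none passed in limma, with 4 of the 13 at an unadjusted p under 0.05 against 13.3% of all genes. GEN1, a resolvase of recombination junctions, differed by 0.91 (adjusted p = 0.123), RAD18 by 0.41 and the checkpoint kinase CHEK1 by 0.49. The list rested on pomalidomide array 3, at -0.75 against -0.11 and -0.18 in the other 2. Without it, 8 of 13 were positive and the median was 0.08.

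Ribosome biogenesis gave 12 of 13 positive differences, a median of 0.26 and 1 member that passed. BOP1, which processes the large-subunit ribosomal RNA, measured 6.96, 7.25 and 6.86 with pomalidomide and 7.62, 7.78 and 7.62 with filanesib added. The groups were separate and the difference was 0.65 (SE 0.12, adjusted p = 0.0191). NOLC1 and NOP2, both nucleolar, differed by 0.45 and 0.49 and did not pass. Outside the list, PWP2 and NOL6, both of the small-subunit processome, passed with differences of 0.64 (adjusted p = 0.0295) and 0.65 (adjusted p = 0.0296). Pomalidomide array 3 was the lowest for each, at 6.73 for PWP2 and 6.69 for NOL6. Without it the list had 8 of 13 positive with a median of 0.08, and BOP1 (0.57), PWP2 (0.44) and NOL6 (0.48) did not pass.

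The other higher genes were varied, and some were dim. SVIL, or supervillin, an actin-binding membrane protein, measured 3.88, 3.99 and 3.98 against 4.86, 4.76 and 4.77. Its replicates were tight and the difference was 0.85 (SE 0.14, adjusted p = 0.0188). Every compared array except combination array 1 lay below 4.78, the median over genes. NCKIPSD, an adaptor for actin assembly, measured 4.98, 5.86 and 5.44 against 6.31, 6.22 and 6.26 (difference 0.83, SE 0.15, adjusted p = 0.0188).

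The genes that fell were led by small Cajal body RNAs, which guide the modification of spliceosomal RNAs. SCARNA5 (probe set 16892521) measured 9.03, 8.71 and 10.29 in the pomalidomide arrays and 7.07, 7.37 and 7.31 in the combination. The groups were more than 1 log2 unit apart, and the pomalidomide arrays were widely spread. SCARNA5 was 4.27-fold lower in the combination (log2 difference -2.09, SE 0.43, adjusted p = 0.0311). SCARNA6 measured 8.82, 8.74 and 9.82 against 7.21, 7.42 and 7.29 (difference -1.82, SE 0.40, adjusted p = 0.0458). SCARNA10 measured 10.59, 10.18 and 10.94 against 9.46, 9.59 and 9.31 (difference -1.12, SE 0.23, adjusted p = 0.0296).

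All 3 were highest in pomalidomide array 3 and kept separate groups. Without that array their differences were -1.62, -1.47 and -0.93, and none of them passed. Of the 23 scaRNA genes measured, 16 were lower in the combination, with a median of -0.33, and the 3 above passed. This class was chosen after its values were seen. Vehicle controls had a mean of 7.47 for SCARNA5, 6.68 for SCARNA6 and 8.67 for SCARNA10, so the combination arrays were nearer to the controls than the pomalidomide arrays were.

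In the same comparison 5 microRNA genes fell, most of them dim. MIR4450 measured 5.90, 5.83 and 5.54 against 4.997, 5.09 and 4.32 (difference -0.95, SE 0.19, adjusted p = 0.0296). MIR4681 measured 4.76, 4.73 and 4.34 against 3.75, 3.82 and 3.75 (difference -0.84, SE 0.17, adjusted p = 0.0296). MIR4502 differed by -0.80, MIR892A by -0.71 and MIR3189 by -0.59, with adjusted p of 0.037, 0.0278 and 0.0295. The probe sets may read the hairpin or a host transcript rather than the mature microRNA. MIR4681, MIR892A and MIR3189 lay below 4.78 in every compared array. Without pomalidomide array 1 only MIR3189 of the 5 passed, and without array 3 MIR4502 and MIR3189 did not. Of 1098 microRNA genes, these 5 passed and 648 were lower, with a median of -0.05.

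Among protein-coding genes that fell, MED31, a subunit of the Mediator complex that links factors to RNA polymerase II, had the smallest p. It measured 6.98, 7.25 and 6.66 against 6.07, 6.36 and 6.24, with no overlap (difference -0.74, SE 0.14, adjusted p = 0.0292). It also passed without pomalidomide array 1 (-0.73), 2 (-0.59) or 3 (-0.89) and with array weights. It did not pass when any 1 combination array was left out. CD9, a tetraspanin of the cell surface, measured 6.62, 6.40 and 6.52 against 5.96, 5.97 and 5.92 (difference -0.56, SE 0.12, adjusted p = 0.04). CTRB1, a pancreatic protease, DSPP, a dentin protein, and TRIM16 also passed, at differences of -0.78, -0.56 and -0.75, all from dim signals of at most 4.68. Without pomalidomide array 1 none of CD9, CTRB1, DSPP and TRIM16 passed, and without array 3 only CTRB1 did.

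Cell death genes did not pass. Of 13 BH3-only and effector genes, 9 were positive, the median was 0.01 and 0 passed, with 2 at an unadjusted p under 0.05 in limma, near the 13.3% of all genes. BCL2L11, which encodes the death activator BIM, measured 6.86, 7.06 and 6.47 with pomalidomide and 7.23, 7.13 and 7.35 in the combination. The groups were separate by a narrow margin and the difference was 0.44 (SE 0.21, adjusted p = 0.372). With filanesib alone, the difference from control was -0.23. The effect beside pomalidomide minus the effect alone was 0.67 (SE 0.30, adjusted p = 0.417). BAX, a pore-forming effector, differed by 0.38 and PMAIP1, or NOXA, by 0.35, while BMF differed by 0.14.

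Survival genes did not pass either. Of 10 BCL2-family and inhibitor of apoptosis genes, 5 were positive and 0 passed, with 1 at an unadjusted p under 0.05 in limma, near the share of all genes. MCL1, on which myeloma cells often depend, measured 9.05, 9.21 and 9.002 against 9.27, 9.02 and 9.23, with overlapping groups. Its difference was 0.08, with a 95% interval of -0.16 to 0.33, and it turned to -0.01 after further quantile normalisation. BCL2 differed by 0.40 (adjusted p = 0.338).

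For the machinery that pomalidomide acts through, 11 of 16 cereblon-related genes were positive with a median of 0.20, and 0 passed, with 6 of the 16 at an unadjusted p under 0.05 in limma against 13.3% of all genes. CRBN, which encodes cereblon, measured 7.54, 7.23 and 7.35 with pomalidomide and 6.92, 7.04 and 7.05 in the combination. The groups did not overlap, and the difference was -0.37, with a 95% interval of -0.60 to -0.14 (adjusted p = 0.14). IKZF1 measured 7.31, 7.72 and 7.05 against 7.79, 7.75 and 7.81. The combination was higher by 0.42 (adjusted p = 0.146), but by 0.06 against pomalidomide array 2 alone. The zinc finger substrate ZNF692 differed by 0.58 (adjusted p = 0.0566). IKZF3 was dim, at 3.00 to 3.71, and differed by 0.25. These are transcript levels, and cereblon acts on the proteins.

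Downstream of these factors, 12 of 13 genes of the IRF4 and MYC axis were positive, with a median of 0.20 and 0 that passed; 4 had an unadjusted p under 0.05 in limma, against 13.3% of all genes. MYC measured 9.91, 10.30 and 10.19 against 10.21, 10.63 and 10.55, so its groups overlapped, and the difference was 0.33 (adjusted p = 0.249). PIM1, a survival kinase, differed by 0.54 (adjusted p = 0.079). IRF4, the master factor of plasma cells, measured 9.47, 10.04 and 9.20 against 9.48, 10.01 and 9.78, and differed by 0.19. Its direction turned with array weights, to -0.08. Of 17 plasma cell identity genes, 11 were positive and 0 passed, with 3 at an unadjusted p under 0.05 in limma, near the share of all genes. The surface antigens CD48 and SLAMF7, the latter a target of antibody treatment, differed by -0.46 and -0.26 and did not pass.

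Interferon genes were already high with pomalidomide and varied between arrays. Their list level was 0.19, 0.17 and 0.56 in the pomalidomide arrays and 0.57, 0.07 and 0.62 in the combination, against -0.26 to -0.17 in the controls. The groups overlapped: combination array 2 was the lowest of the 6 and combination array 3 the highest. Of 32 genes, 22 were positive with a median of 0.14 and 0 passed, with 5 at an unadjusted p under 0.05 in limma, near the 13.3% of all genes. XAF1, an interferon-induced death-promoting gene, measured 7.68, 8.25 and 8.11 against 8.80, 7.78 and 8.97. The difference was 0.50 (adjusted p = 0.352), and combination array 2 lay below 2 of the pomalidomide arrays. The antiviral genes MX2 and IFITM2 differed by 0.63 and 0.69. The chemokine gene CXCL10 differed by -0.26 and IFIT1 by 0.08, and both changed sign in at least 1 setting. Of 18 nucleic acid sensors and interferon regulators, 17 were positive, with a median of 0.08, and 0 passed, with 2 at an unadjusted p under 0.05 in limma, near that share. Without pomalidomide array 1, and after further quantile normalisation, 10 of the 18 were positive, near the 53.5% of all genes, with medians of 0.01 and 0.02. MAVS, the mitochondrial adaptor of RNA sensing, differed by 0.51 (adjusted p = 0.126), and IRF5 by 0.44 (adjusted p = 0.158).

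No sterol or fatty acid gene passed. Of 21 genes of cholesterol and fatty acid synthesis, 15 were negative, with a median of -0.13, and 3 had an unadjusted p under 0.05 in limma, near the 13.3% of all genes. INSIG1, a sterol-responsive gene that restrains cholesterol synthesis, measured 9.35, 9.26 and 8.92 with pomalidomide and 8.51, 8.47 and 8.62 in the combination. The groups were separate and the difference was -0.64 (SE 0.15, adjusted p = 0.0592). MSMO1, a methylsterol oxidase of the same pathway, measured 8.87, 8.79 and 8.84 against 8.26, 8.15 and 8.23 (difference -0.62, adjusted p = 0.106). EBP, a sterol isomerase, measured 8.47, 8.25 and 8.36 against 8.07, 8.08 and 7.94 (difference -0.33, adjusted p = 0.297). All 3 genes, named for having the smallest p in the list, had separate groups, which held for 5.29% of all genes in the lower direction. FASN, the fatty acid synthase, differed by 0.35 (adjusted p = 0.388), and by -0.12 against pomalidomide array 2 alone. Among hypoxia and glycolysis genes the median was 0.05, with ADM at -0.52 and LDHA at 0.39, neither passing. FKBP5, a glucocorticoid target, differed by 0.24.

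Most markers of other cell types were dim. Of 53 measured markers on 10 lists, 21 were positive with a median of -0.07, and 1 passed. Their level, taken as for the mitotic genes, was -0.010 to 0.109 in the pomalidomide arrays and -0.049 to -0.031 in the combination, so every combination array lay below every pomalidomide array. That gene was RGS5, a pericyte marker that was dim, at 3.55, 3.65 and 3.48 against 4.13, 4.25 and 3.9995 (difference 0.57, adjusted p = 0.0454), and it did not pass without pomalidomide array 1 or 3. Endothelial markers averaged 3.995 to 4.10 over 9 genes in the pomalidomide arrays and 3.87 to 3.97 in the combination, where PECAM1, an endothelial adhesion molecule, differed by -0.61 (adjusted p = 0.132). Macrophage markers averaged 4.3799 to 4.44 and 4.23 to 4.3791 over 8 genes, so for both lists the averages were separate. In every other marker list the averages overlapped. By list level the endothelial groups overlapped too, at -0.049 to 0.052 with pomalidomide and -0.148 to 0.034 in the combination. CD68, a lysosomal marker that myeloma cells also express, was bright at 9.63 to 10.20 and 9.78 to 10.42, with overlapping groups. The part of other cells in the mitotic and scaRNA differences was not tested.

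The same filanesib contrast was made in 3 other backgrounds that share no array with this one. At the same threshold 0 genes passed for filanesib alone against control (587, or 3.94%, at an unadjusted p under 0.05 in limma). There were 3 for filanesib beside dexamethasone (0.0202%) and 1 beside pomalidomide with dexamethasone (0.00672%). These contrasts use the same spread per gene, which the pomalidomide arrays raise, so their p-values may be too large. The counts therefore do not rank the filanesib effect across backgrounds. Averaged over those 3 backgrounds, 94 genes passed (0.632%), 82 of them higher (0.551%). Of the 38 genes higher beside pomalidomide, 13 also passed as higher in that average, and of the 15 lower ones 0 did. Genes picked for a large difference in one comparison tend to be smaller in another, so a lower value elsewhere does not by itself show that the effect was particular to pomalidomide.

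CDC20 had filanesib effects of 0.50 alone, 0.75 beside dexamethasone and 0.71 beside both drugs, next to 0.90 beside pomalidomide. PLK1 had 0.28, 0.73 and 0.67, next to 0.85, and BUB1 0.48, 0.58 and 0.80, next to 0.65. Each of these 3 genes passed in the average of the other backgrounds, with means of 0.65, 0.56 and 0.62. For the 5 mitotic lists, the median effect was 0.25 alone, 0.53 beside dexamethasone, 0.54 beside both and 0.48 beside pomalidomide, and 43 of the 78 genes passed in the average. KIF11 had 0.25, 0.60 and 0.63, and a mean of 0.49 that passed (adjusted p = 0.0411). Replication genes had a median effect of 0.01 alone, 0.28 beside dexamethasone, 0.18 beside both and 0.33 beside pomalidomide.

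Other called genes had values nearer to 0 in those backgrounds. SVIL had an effect of -0.11 alone, with 95% intervals of -0.30 to 0.29 beside dexamethasone and -0.30 to 0.30 beside both drugs. NCKIPSD had effects of -0.09, 0.07 and -0.07 in the same order. PWP2 had -0.25, 0.17 and 0.07, and BOP1 -0.02, 0.16 and 0.11. Of the 38 higher genes, 18 had a mean effect under 0.1 elsewhere and 16 had one over 0.3. In the direct test, subtracting the mean effect in the other backgrounds left 0 genes with an adjusted p under 0.05, and 1624 at an unadjusted p under 0.05 in limma. The difference was 0.88 for SVIL (adjusted p = 0.10) and 0.86 for NCKIPSD (adjusted p = 0.14). Against the effect beside pomalidomide with dexamethasone 0 genes passed, with 1087 at an unadjusted p under 0.05.

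Against filanesib alone, 4 genes passed (0.0269%), all scaRNAs and all lower beside pomalidomide. SCARNA5 measured 6.88, 8.51 and 7.01 in the controls and 9.06, 9.24 and 8.68 with filanesib alone, a difference of 1.53 (SE 0.43). The effect beside pomalidomide was -2.09, and the 2 effects differed by -3.62 (SE 0.61, adjusted p = 0.0168). The corresponding values were -3.37 for SCARNA6 (adjusted p = 0.0168), -2.25 for SCARNA10 (adjusted p = 0.00505) and -1.62 for SCARNA12 (adjusted p = 0.0168). SCARNA10 measured 8.40, 9.14 and 8.49 in the controls and 9.34, 10.35 and 9.74 with filanesib, so those groups were also separate. None of these scaRNAs passed for filanesib alone against control. Against the mean effect in the other backgrounds the 4 had adjusted p of 0.141 to 0.329 in limma. Without pomalidomide array 2, 152 genes passed this test, and without control array 1 or 3, filanesib array 2 or 3, pomalidomide array 3, or combination array 1 or 3, 1 gene did. Beside dexamethasone and beside pomalidomide with dexamethasone, the filanesib effect on SCARNA5 was -0.45 and -0.56, and neither passed.

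**Figure D4:**
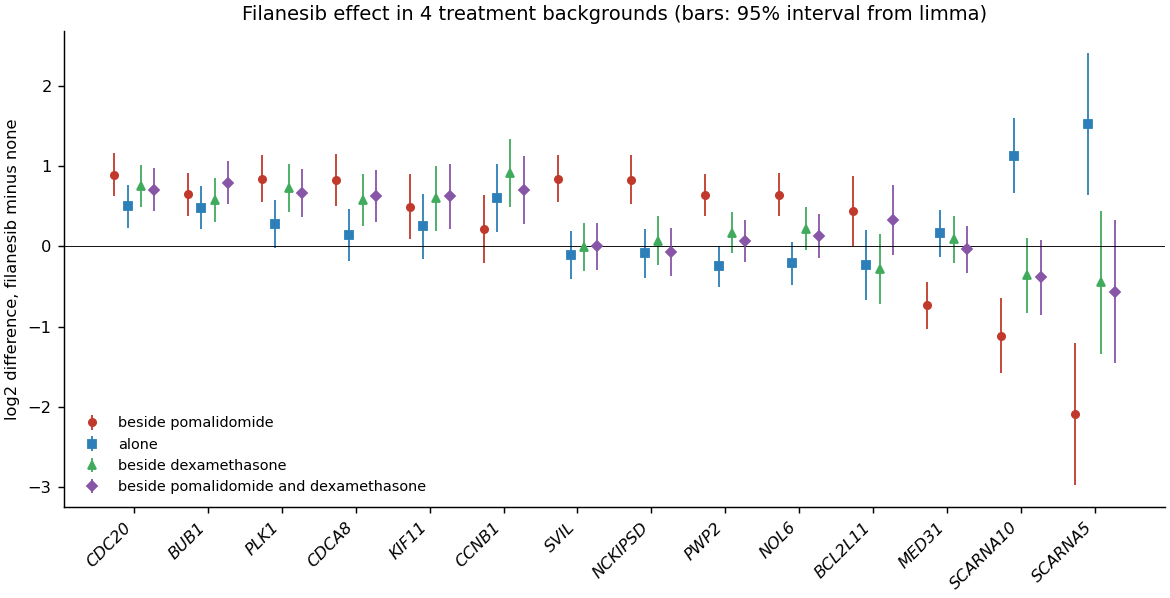
Points are the log2 difference that filanesib makes in 4 treatment backgrounds, each from 3 arrays against 3, with 95% intervals from limma. The CDC20 intervals lie above 0 in all 4 backgrounds, those of SVIL span 0 in the 3 other than pomalidomide, and SCARNA5 is 1.53 alone and -2.09 beside pomalidomide.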

How the data were processed

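The authors deposited 1 log2 level for each probe set and array; the submitters' processing notes name RMA and the Affymetrix Expression Console, with versions not given in the sources used here. Total RNA had been isolated with a miRNeasy kit, per the labels' protocols. RMA equalises the arrays' distributions, which hides any shift common to most genes. The table held 53617 probe sets, of which 16098 had 1 gene symbol. The probe set with the highest mean over the 24 arrays stood for each of 14884 genes. No value was a count, and depth is not defined for arrays; 3 arrays a group limit the precision, with a median SE of 0.14.

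Group means were estimated from all 24 arrays with limma 3.58.1 in R 4.3.3 (16 residual degrees of freedom, eBayes), with two-sided p-values, Benjamini-Hochberg adjustment over all genes and a threshold of 0.05. Differences between filanesib effects were contrasts of the same fit. On simulated data with even noise, the share of unchanged genes among the calls was slightly above the threshold. With each array's own noise level that share was far above the threshold. The limit set for this check failed there and was then kept for even noise only. No fit was changed for that, and the fits on the 6 arrays and with array weights stand beside the main one.

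Named genes were up to 12 a direction with the largest difference among those past the threshold with separate groups, up to 5 of smallest p in each list (2 for other cell types), a short list of drug target, death, cereblon and interferon genes, and up to 4 a direction for each difference of effects. SDC1, XBP1, CD9 and CD68, which this rule did not give, and the scaRNA and microRNA classes were chosen after their values were seen. The members and lists were chosen with earlier results of these data known, so no list is independent evidence. The probe table named no probe set for some listed genes, which were not used here, nor were genome positions or sequences.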

Additional observations from a re-analysis of the deposited data

Results flagged for a closer look

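The effect of filanesib beside pomalidomide minus its effect alone passed the test for 4 genes, all small Cajal body RNAs. The difference of effects was -3.62 for SCARNA5, -3.37 for SCARNA6, -2.25 for SCARNA10 and -1.62 for SCARNA12. In each of them filanesib alone was above control and the combination below pomalidomide. Dexamethasone alone was above control in each as well, by group mean. For SCARNA10 every treated array, at 9.31 or more, lay above every control, at 9.14 or less. For the others some treated arrays lay within the control range. Against the mean filanesib effect in the other backgrounds none of the 4 passed.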

How the results depend on the processing

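The count of 53 genes became 0 on the 6 compared arrays alone, 23 after further quantile normalisation (19 of them among the 53), 2 with array weights, 2 over every probe set (5908 at an unadjusted p under 0.05), 0 with a minimum change of 1.5-fold and 0 with pomalidomide represented by its second array alone. Over omissions of 1 array, lone arrays of a group being assumed to vary like the others, the count ran from 0 to 511. The comparison with filanesib alone, with 4 genes in all, gave 2 on the compared groups only (1 of them among the 4), 2 with a trended and robust variance prior (both among the 4), 2 over every probe set, 0 with the minimum change, 0 among protein-coding genes only, and 0 with the second pomalidomide array alone, and ran from 1 to 152 without single arrays. The comparison with the effect beside pomalidomide plus dexamethasone gave 1 gene with the replicate block and 0 to 4 without single arrays. The comparison with the mean of the other backgrounds gave 1 gene with array weights and 0 to 163 without single arrays; it uses every group, so a fit on compared groups only is the same fit.

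Arrays with the same replicate number did not deviate together (correlations of -0.04, 0.10 and -0.10 for numbers 1 to 3), so the numbers were not taken as pairs. With the replicate number as a block 37 genes passed, all among the 53, and 4 for the comparison with filanesib alone.

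Of 89 genes examined, 83 kept their direction in every alternative. MCL1 turned to -0.013 after further quantile normalisation and to -0.037 with the second pomalidomide array alone. IFIT1 turned to -0.014 after further quantile normalisation and ran from -0.33 to 0.64 over omissions of 1 array. IRF4 turned to -0.076 with array weights and -0.28 with the second pomalidomide array alone. CXCL10 turned to 0.16 with array weights, 0.48 with the second pomalidomide array alone and ran from -0.63 to 0.049 over omissions of 1 array. FASN turned to -0.12 with the second pomalidomide array alone, and CCNB1 ran from -0.0098 to 0.45 over omissions of 1 array. All 34 called genes lost their call in at least 1 alternative. This had to happen, because some alternatives called 0 genes, so it does not tell the genes apart. Of 55 uncalled genes, 20 passed in at least 1 alternative. The causes were not tested.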
